A study of Mus musculus with 36 samples.

Results

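The 9 genes described here, H2-Aa, H2-Ab1, H2-Eb1, H2-DMa, H2-DMb2, H2-Oa, H2-Ob, Cd74, and Ciita, encode the proteins with which cells present peptides on MHC class II molecules. They were taken by gene name, as the non-control probes that carry one of these names in the scanner files. The rule used no measured values, but the names were chosen with earlier results of these data known. They had 14 probes among the 39429 probes and 31093 gene names of the array, and all 9 genes were among the 15084 genes tested.

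MHC class II molecules show peptides from endosomes to helper T cells, and in blood they are made mainly by B cells, dendritic cells, and part of the monocytes. The alpha and beta chains (H2-Aa with H2-Ab1 for I-A, and H2-Eb1 for I-E) assemble on the invariant chain Cd74, whose remnant CLIP stays in the peptide groove until the editor H2-M, a dimer of H2-DMa with a H2-DMb chain, exchanges it for other peptides. H2-O, a dimer of H2-Oa and H2-Ob found mostly in B cells, holds H2-M back, and Ciita is the coactivator without which class II genes are hardly transcribed. The C57BL/6 strain lacks the I-E alpha chain, and its pseudogene H2-Ea-ps was significantly above background on 0 of the 36 arrays.

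RNA was measured in the blood of male C57BL/6J mice, aged 8 to 10 weeks per the study's methods, 7 days after exposure, on 36 single-colour Agilent arrays. Each array held 1 mouse, and each of 6 groups held 6. Besides controls, sham-irradiated and labelled with no treatment, there were mice exposed to 3 Gy of x-rays, mice exposed to mixed fields of 3 Gy in all to which neutrons contributed 5, 15, or 25%, and mice exposed to 0.75 Gy of neutrons, labelled as 100% neutron and called neutron alone here although the source also emits some photons. Neutron alone therefore differed from the other exposures in total dose as well as in quality. Levels are given as the log2 of the scanner's processed signal above the median of its array, so that 1 unit is a 2-fold difference, and levels of different probes are not compared. A gene was called where limma's p was under 0.001 and its Benjamini-Hochberg adjusted value, taken over all genes tested, was under 0.05. Arrays had between 15564 and 21293 probes well above background, and their medians lay between 2.76 and 5.30 on the log2 scale. Whole blood is a mixture, and fewer cells of a type cannot be told apart from less RNA per cell.

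Class II genes share a promoter element that binds the complex through which Ciita acts. The element is shown for members on chromosome 17 for which RefSeq's promoter table (build GRCm38.p6) has an entry. Its part in any change of their levels was not tested. The 150 bases before the annotated start are given 5′ to 3′ on the strand of the gene, with the X-box core GCAAC and the Y-box core TGATTGG in capitals where the first is followed by the second within 40 bases, and the Y-box core alone otherwise. Entries were found for 6 members. The sequences of H2-Aa (chr17:34287824-34287973, minus strand), H2-Eb1 (chr17:34305717-34305866), H2-Oa (chr17:34092229-34092378), H2-Ob (chr17:34238755-34238904), and H2-DMb2 (chr17:34145099-34145248), the last 4 on the plus strand, are followed by H2-DMb1 (chr17:34153041-34153190, plus strand), which is no member but a near copy of H2-DMb2.
H2-Aa: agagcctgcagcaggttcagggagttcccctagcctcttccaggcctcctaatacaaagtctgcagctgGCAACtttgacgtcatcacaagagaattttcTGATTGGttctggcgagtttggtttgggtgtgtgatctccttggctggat
H2-Eb1: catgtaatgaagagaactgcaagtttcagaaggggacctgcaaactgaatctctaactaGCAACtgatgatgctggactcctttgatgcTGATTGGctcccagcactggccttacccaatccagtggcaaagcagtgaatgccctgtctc
H2-Oa: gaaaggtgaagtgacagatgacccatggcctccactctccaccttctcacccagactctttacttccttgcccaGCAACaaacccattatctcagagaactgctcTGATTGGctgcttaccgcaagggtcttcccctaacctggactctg
H2-Ob: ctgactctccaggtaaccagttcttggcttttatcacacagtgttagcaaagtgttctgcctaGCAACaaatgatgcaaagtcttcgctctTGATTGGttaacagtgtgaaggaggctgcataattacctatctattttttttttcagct
H2-DMb2: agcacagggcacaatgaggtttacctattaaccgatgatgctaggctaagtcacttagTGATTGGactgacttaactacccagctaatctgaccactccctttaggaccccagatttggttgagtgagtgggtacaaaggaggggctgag
H2-DMb1: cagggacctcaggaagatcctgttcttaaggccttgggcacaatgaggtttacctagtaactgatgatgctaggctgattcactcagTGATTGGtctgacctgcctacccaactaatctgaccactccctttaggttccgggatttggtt

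Both cores stood in this order before H2-Aa, H2-Eb1, H2-Oa, and H2-Ob, with 23 to 26 bases between them and the Y-box core 45 to 61 bases before the start. By exact letters, H2-DMb2 and H2-DMb1 held the Y-box core alone, at 92 and 63 bases before the start. Near matches of GCAAC were not searched, so an X box with other letters would be missed, and none is shown to be absent. Of the 2 entries of H2-DMa, neither held the pair and 1 held GCAAC. Among 32851 promoter entries, 29.9% held GCAAC and 7.23% held TGATTGG on either strand in the 250 bases before the start, and 0.31% held both in this order within 40 bases on 1 strand. The letters searched were chosen with these sequences in view, and a match is a description and not a binding site.

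Class II genes were lower in blood after every exposure, and each of the 9 was lower than in the controls under every processing alternative in which it was tested. All 9 members were called lower after x-rays and in each mixed field (5, 15, and 25%), where 16.9, 14, 16.5, and 13.9% of all genes tested were called lower. After neutron alone 8 of 9 were called lower, against 20.5% of all genes, and H2-Ab1 was not called. The members' median change was -2.71 for x-rays, -2.75, -3.17, and -2.64 for the mixed fields, and -1.64 for neutron alone, while the median of all genes lay between -0.12 and -0.02. The exposed arrays lay below every control array for 9 members after x-rays and in the 5 and 25% fields (17, 13.8, and 15.4% of all genes) and for 8 members in the 15% field and after neutron alone (16.2 and 20.3%). The exception in both was H2-Ab1. These comparisons share their 6 control arrays.

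**Figure D1:**
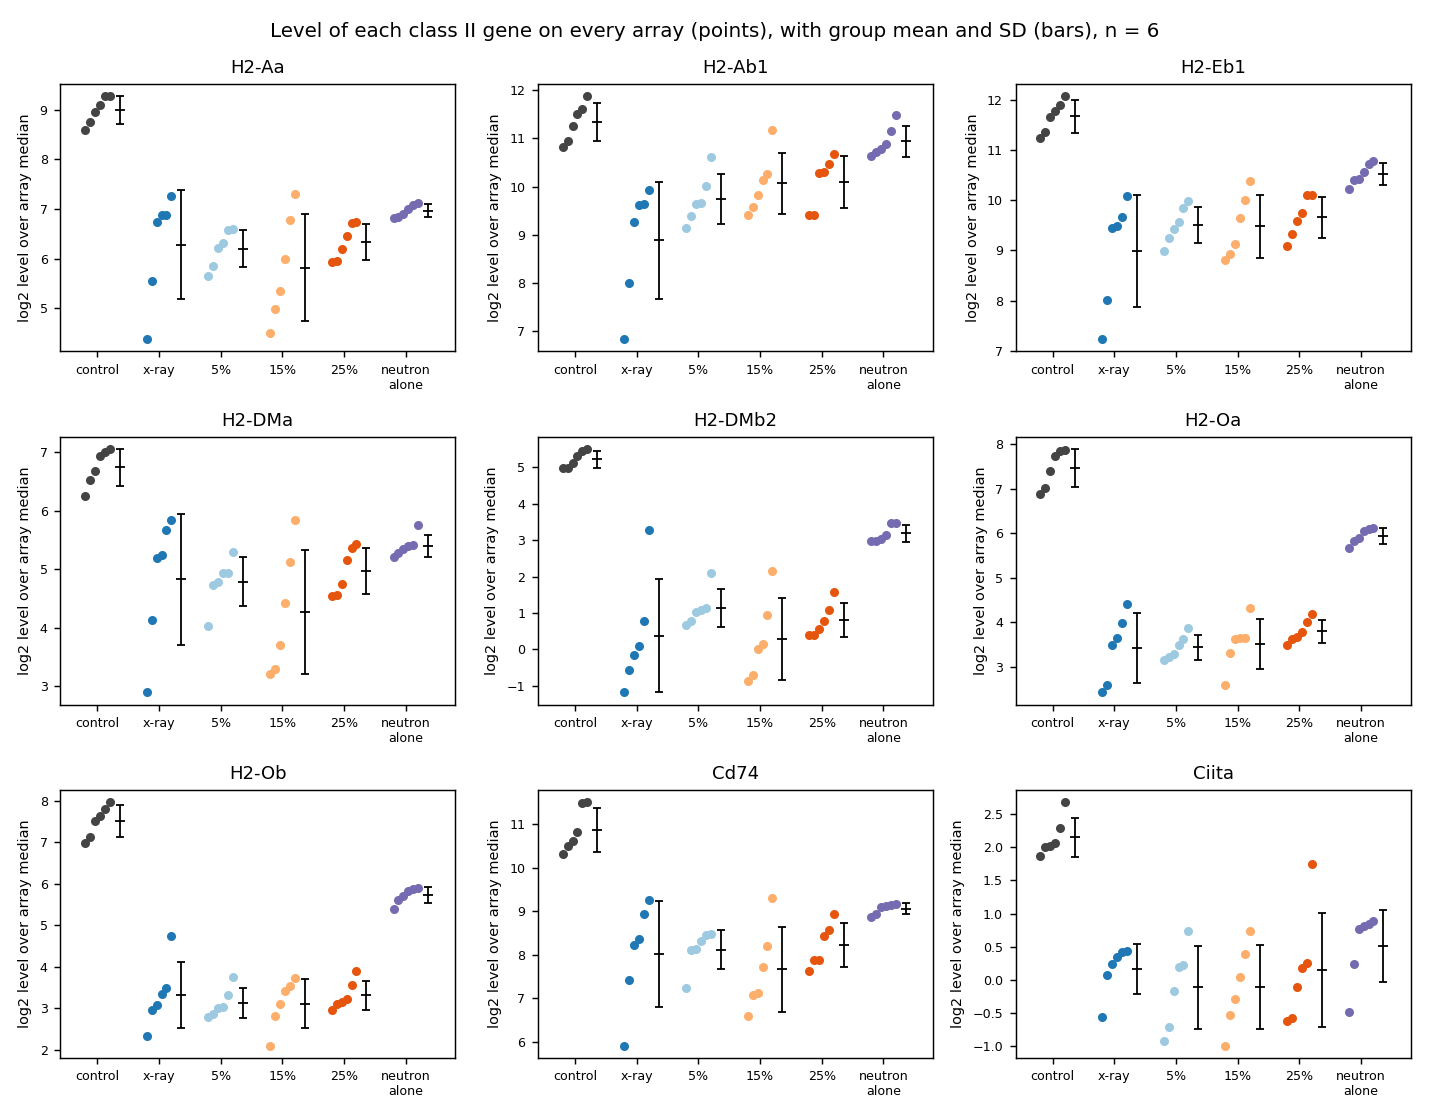
Log2 level over the array median of each of the 9 class II genes (vertical axes) on every array by group (horizontal axes); points are arrays sorted by level within a group, and bars give the group mean and SD (n = 6). Every control array lies above every exposed array except for H2-Ab1, and after neutron alone H2-DMb2, H2-Oa, and H2-Ob lie between the controls and the other exposures except for 1 x-ray array of H2-DMb2.

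The chains of the class II molecules had falls of 5.50- to 6.52-fold after x-rays and differed more after neutron alone, where H2-Ab1 was not called. H2-Aa, the I-A alpha chain (probe on chromosome 17, mm9, 34421285 to 34421344), had levels from 8.59 to 9.28 in controls (median 9.02), from 4.38 to 7.27 after x-rays (median 6.81), and from 6.81 to 7.12 after neutron alone (median 6.96). The 5, 15, and 25% fields had medians of 6.27, 5.67, and 6.33, and no exposed array reached the lowest control. Relative to controls H2-Aa was 6.52-fold lower after x-rays (log2 change -2.71, SE 0.42, adjusted p 0.000205), 6.89-, 8.98-, and 6.29-fold in the mixed fields, and 4.07-fold after neutron alone (-2.03, SE 0.15, adjusted p 2.81e-07).

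H2-Ab1, the I-A beta chain and partner of H2-Aa, had smaller falls. Its levels ran from 10.83 to 11.89 in controls (median 11.38), from 6.82 to 9.93 after x-rays (median 9.44), from 9.41 to 11.18 in the 15% field (median 9.99), and from 10.63 to 11.49 after neutron alone (median 10.83). The fall was 5.50-fold after x-rays (log2 change -2.46, SE 0.47, adjusted p 0.000867), 3.04-, 2.42-, and 2.38-fold in the 5, 15, and 25% fields, and the difference after neutron alone was -0.40 (95% interval -0.85 to 0.05, adjusted p 0.118). Leaving out 1 array at a time kept the call in the 15% field in 2 of 12 fits (-1.50 to -1.14) and in the 25% field in 6 of 12 (-1.37 to -1.11). The other H2-Ab1 probe, which overlaps the first on chromosome 17 (mm9, 34406296 to 34406355 and 34406305 to 34406364), gave -2.46, -1.67, -1.45, -1.40, and -0.57 in the order of the exposures above. After neutron alone the H2-Ab1 change was -0.93 under quantile normalization and -1.07 in the deposited expression table, both called, and -2.15 with normexp background correction, not called. The median of all genes was -0.02, -0.45, and -1.19 in the same order.

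H2-Eb1, the I-E beta chain, had falls between those of the other chains in the mixed fields. Levels ran from 11.24 to 12.08 in controls (median 11.72), from 7.23 to 10.09 after x-rays (median 9.46), and from 10.22 to 10.79 after neutron alone (median 10.50), with medians of 9.50, 9.39, and 9.66 in the mixed fields. It fell 6.43-fold after x-rays (log2 change -2.68, SE 0.43, adjusted p 0.00025), 4.48-, 4.56-, and 4.04-fold in the mixed fields, and 2.22-fold after neutron alone (-1.15, SE 0.17, adjusted p 7.93e-05). Whether the 3 chains fell by different amounts was not tested.

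Among the peptide editors and their modulators, H2-DMb2, H2-Oa, and H2-Ob had measured falls of 12.7- to 30.8-fold after x-rays and in each mixed field. H2-DMb2, a beta chain of H2-M, had levels from 4.97 to 5.50 in controls (median 5.21), from -1.16 to 3.26 after x-rays (median -0.03), and from 2.97 to 3.48 after neutron alone (median 3.10). Medians in the mixed fields were 1.06, 0.08, and 0.68, and a single x-ray array, replicate 1 at 3.26, reached the range of neutron alone. H2-DMb2 fell 28.8-fold after x-rays (log2 change -4.85, SE 0.57, adjusted p 2.32e-05), 17.0-, 30.8-, and 21.5-fold in the mixed fields, and 4.11-fold after neutron alone (-2.04, SE 0.16, adjusted p 3.61e-07). Its probe was well above background on all 6 control and all 6 neutron-alone arrays but on 2, 5, 2, and 4 of 6 arrays after x-rays and in the 5, 15, and 25% fields, so the large folds rest partly on dim spots. With normexp background correction its x-ray change was -2.67, still called, where the median of all genes was -0.78.

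H2-DMa, the alpha chain of H2-M, had smaller falls than H2-DMb2, a difference that was not tested. Its levels ran from 6.26 to 7.05 in controls (median 6.81), from 2.89 to 5.84 after x-rays (median 5.21), from 3.21 to 5.84 in the 15% field (median 4.07), and from 5.21 to 5.75 after neutron alone (median 5.37). It fell 3.77-fold after x-rays (log2 change -1.91, SE 0.43, adjusted p 0.00239), 3.88-, 5.56-, and 3.42-fold in the mixed fields, and 2.54-fold after neutron alone. The x-ray call held in 5 of 12 fits with 1 array left out (-2.12 to -1.53).

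H2-Oa and H2-Ob, the chains of H2-O, had falls of like size. H2-Oa levels ran from 6.89 to 7.88 in controls (median 7.57), from 2.43 to 4.42 after x-rays (median 3.57), and from 5.66 to 6.13 after neutron alone (median 5.97). H2-Ob levels ran from 6.99 to 7.97 in controls (median 7.58), from 2.34 to 4.74 after x-rays (median 3.20), and from 5.40 to 5.89 after neutron alone (median 5.78). For both genes the neutron-alone arrays lay below every control and above every array of the other 4 exposures. H2-Oa fell 16.4-fold after x-rays (log2 change -4.04, SE 0.34, adjusted p 2.4e-06), 16.2-, 15.4-, and 12.7-fold in the mixed fields, and 2.87-fold after neutron alone. H2-Ob fell 18.2-fold after x-rays (-4.19, SE 0.34, adjusted p 1.79e-06), 20.9-, 21.1-, and 18.4-fold in the mixed fields, and 3.45-fold after neutron alone. A second H2-Ob probe (chromosome 17, mm9, 34382790 to 34382849) gave changes of -4.74, -4.05, -4.19, -4.00, and -1.42 from x-rays through the mixed fields to neutron alone, all called, and the remaining probe was significantly above background on 7 of 36 arrays and was not tested.

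Cd74, the invariant chain, had levels from 10.31 to 11.50 in controls (median 10.71), from 5.91 to 9.26 after x-rays (median 8.29), and from 8.86 to 9.16 after neutron alone (median 9.11). The mixed fields had medians of 8.22, 7.42, and 8.16, and no exposed array reached the controls. Cd74 fell 7.19-fold after x-rays (log2 change -2.85, SE 0.48, adjusted p 0.000379), 6.71-, 9.16-, and 6.24-fold in the mixed fields, and 3.51-fold after neutron alone (-1.81, SE 0.21, adjusted p 1.21e-05).

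Ciita, the coactivator, was dim. Its brightest probe (chromosome 16, mm9, 10526568 to 10526627) was well above background on all 6 control arrays, on none of the x-ray and 5% arrays, and on 1, 2, and 1 of 6 arrays in the 15% and 25% fields and after neutron alone. Levels ran from 1.86 to 2.68 in controls (median 2.04) and from -0.99 to 1.74 over all exposed arrays. With each array's dimmest signal well above background as a floor, the brightest probe was at least 3.71-fold lower after x-rays (limma adjusted p 1.38e-05). In the 5% field it was at least 4.24-fold lower (adjusted p 5.6e-05). Its measured means were 0.16 after x-rays and -0.11 in the 5% field, against 2.15 in the controls. The measured changes were -2.26 and -2.00 in the 15 and 25% fields and -1.64 after neutron alone. The 3 Ciita probes disagreed: after neutron alone the other 2 gave -0.81 and -0.21, and after x-rays -2.01 and -1.03, of which only -2.01 was called. In the 5% field those 2 gave -1.82 and -1.45 (3.54- and 2.73-fold), both called and both smaller than the bound of the brightest probe.

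**Figure D2:**
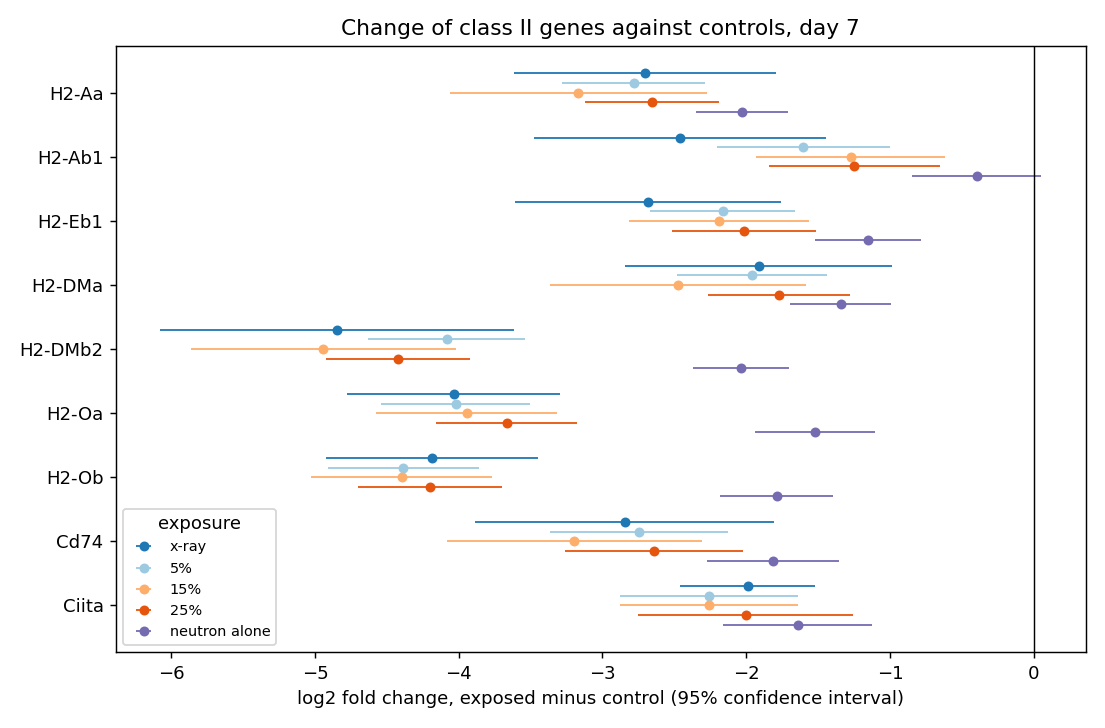
Log2 fold change of each of the 9 class II genes (vertical axis) in each exposure against the controls (horizontal axis), with 95% confidence intervals from limma (6 arrays against 6). H2-DMb2, H2-Oa, and H2-Ob lie lowest in the x-ray and mixed-field groups, and for neutron alone all genes but H2-Ab1 lie between -2.04 and -1.15. Ciita was near background in these groups and has only a bound after x-rays and in the 5% field.

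X-rays were then compared with each mixed field, all of 3 Gy, to ask whether the neutron share of the dose was visible in these genes. None of the 9 members was called between x-rays and the 5, 15, or 25% field by limma, where 0, 4.09, and 2.61% of all genes were called. At an unadjusted p below 0.05 the counts were 0, 1, and 1 member, H2-Ab1 in both cases. Differences ranged from -0.27 to 0.86, from -0.56 to 1.19, and from -0.01 to 1.21, the highest being H2-Ab1 each time (adjusted p 0.296, 0.146, and 0.126). The widest 95% interval was that of H2-DMb2 in the 15% field, from -1.57 to 1.37, and H2-Ab1 had 0.10 to 2.28 there, while the intervals were narrower for H2-Oa (-0.73 to 0.76 in the 5% field) and H2-Ob (-0.76 to 0.74 in the 25% field). The x-ray arrays spread widely, with SDs of 1.10 for H2-Aa, 1.21 for H2-Ab1, and 1.56 for H2-DMb2 against 0.13, 0.33, and 0.24 after neutron alone, and x-ray replicate 5 was lowest for H2-Aa, H2-Ab1, H2-Eb1, H2-DMa, and Cd74.

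After neutron alone 4 members, H2-Ab1, H2-DMb2, H2-Oa, and H2-Ob, were called higher than after x-rays, as were 6.5% of all genes. The differences were 2.06 (adjusted p 0.00534), 2.81 (0.00301), 2.51 (0.000137), and 2.40 (0.000215). The H2-Ab1 call held in 5 of 12 fits with 1 array left out (1.65 to 2.27), and the other H2-Ab1 probe, at 1.88, was not called. H2-Eb1 was higher by 1.53 (adjusted p 0.016) without passing both thresholds, and the remaining differences ran from 0.35 for Ciita to 1.03 for Cd74. The Ciita value is that of its brightest probe. Another dim Ciita probe was called higher (1.21, limma adjusted p 0.00526), and the third was not (0.82). With normexp background correction, under which 8 members were tested, 0 were called here by limma and 0 had an unadjusted p below 0.05, and H2-Aa and H2-DMa changed sign (-0.091 and -0.14). The median of all genes in that fit was -0.37.

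Neutron alone and the 25% field, in which neutrons gave 25% of 3 Gy, were scanned in 1 session. Against the 25% field, H2-DMb2, H2-Oa, and H2-Ob were called higher after neutron alone, by 2.39 (adjusted p 2.45e-05), 2.14 (9.25e-06), and 2.41 (8.25e-06), where 4.02% of all genes were. All 6 neutron-alone arrays lay above all 6 arrays of the 25% field for these genes and for H2-Aa (0.63) and H2-Eb1 (0.86), against 3.55% of all genes. The Ciita probes disagreed here too. A dim one was called higher (1.36, limma adjusted p 0.0054), while the brightest (0.36) and the remaining one (0.91) were not. Without replicate 6 of the 25% field, 5 members were called, and with the adjusted p below 0.05 alone, 7. With normexp background correction 0 of 8 were called by limma and 0 had an unadjusted p below 0.05, with differences of 0.54, 0.93, and 1.08 for H2-DMb2, H2-Oa, and H2-Ob. The median of all genes in that fit was -0.57.

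Slides and scan sessions were not balanced over the groups. On the slide with 1 array each of controls, x-rays, and the 5 and 15% fields, all 9 members were lower than the control in each pair, with differences from -5.68 to -1.33, -4.63 to -2.07, and -3.93 to -1.16. In the session that held 5 controls and 5 x-ray arrays the differences ran from -4.68 to -1.90. With the scan session as a block, 9, 4, and 2 members stayed called after x-rays and in the 5 and 15% fields, and with the slide as a block 4, 2, and 0, all 9 keeping their direction. The 5 and 15% fits then rest on 1 control and 1 exposed array. The 25% field and neutron alone shared no slide or session with the controls or x-rays, so that batch and group cannot be told apart there.

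The members were set beside markers of the blood cells that make class II molecules, whose part in the result was not tested. Of 18 B-cell markers tested, 18, 18, 17, 18, and 16 were called lower in the order of the exposures, with median changes of -4.37, -3.87, -4.16, -4.30, and -1.55. Ms4a1 (CD20) changed by -4.83 after x-rays and -1.57 after neutron alone, and Cd79a, a chain of the B-cell receptor complex, by -5.05 and -1.27. The leading markers were Fcer2a (CD23), at -5.63 and -2.46, and Tnfrsf13c, the BAFF receptor, at -5.51 and -1.99. The mean level of the 17 B-cell markers measured on every array ran from 6.89 to 7.64 in the controls, from 1.95 to 4.94 over the x-ray and mixed-field arrays, and from 5.54 to 5.91 after neutron alone. The 13 monocyte and macrophage markers tested had median changes of 0.08, -0.02, 0.21, 0.27, and 0.47, and their mean level ran from 5.19 to 6.30 in the controls and from 4.72 to 7.10 in the exposed arrays. Of 11 dendritic-cell markers, 1, 2, 2, 2, and 2 were called lower, and 1 was called higher after neutron alone. Of all genes tested, 16.9, 14, 16.5, 13.9, and 20.5% were called lower. The dendritic-cell markers had median changes of -0.26, -0.003, -0.52, -0.24, and 0.04. Those called lower were led by Tcf4 in all 5 exposures (-2.01 after x-rays, -0.94 after neutron alone) and Ccr9 in 4.

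The difference between a member's level and the B-cell marker mean was taken on each array, and its change from the control mean is given. For H2-Ob this change ran from -0.38 to -0.01 over the exposures, for H2-Oa from -0.02 to 0.43, and for H2-DMb2 from -0.73 to -0.08. The chains, H2-DMa, and Cd74 changed upward on this scale after x-rays and in each mixed field, by 1.01 or more. After x-rays the change was 2.26 for H2-DMa, 2.19 for Ciita, 1.72 for H2-Ab1, 1.49 for H2-Eb1, 1.47 for H2-Aa, and 1.33 for Cd74, and the 25% field gave 2.32, 2.09, 2.84, 2.08, 1.44, and 1.45 in the same order. Relative to the B-cell marker mean, the exposed arrays all lay above the controls for 2, 6, 3, 6, and 1 members in the order of the exposures, as they did for 94.5, 94.4, 95.5, 97.8, and 59.6% of all genes, and H2-DMb2, H2-Oa, and H2-Ob were never among them. Ciita, counted among them in the 5, 15, and 25% fields, was near background in exposed blood, so its values on this scale are upper bounds and show no rise. After neutron alone the same change was -0.52 for H2-Aa, -0.30 for Cd74, 0.17 for H2-DMa, 0.36 for H2-Eb1, and 1.11 for H2-Ab1. H2-Aa alone lay below every control on this scale, as did 0.239% of all genes. These values describe ratios on each array and give no test of which cells made the RNA.

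**Figure D3:**
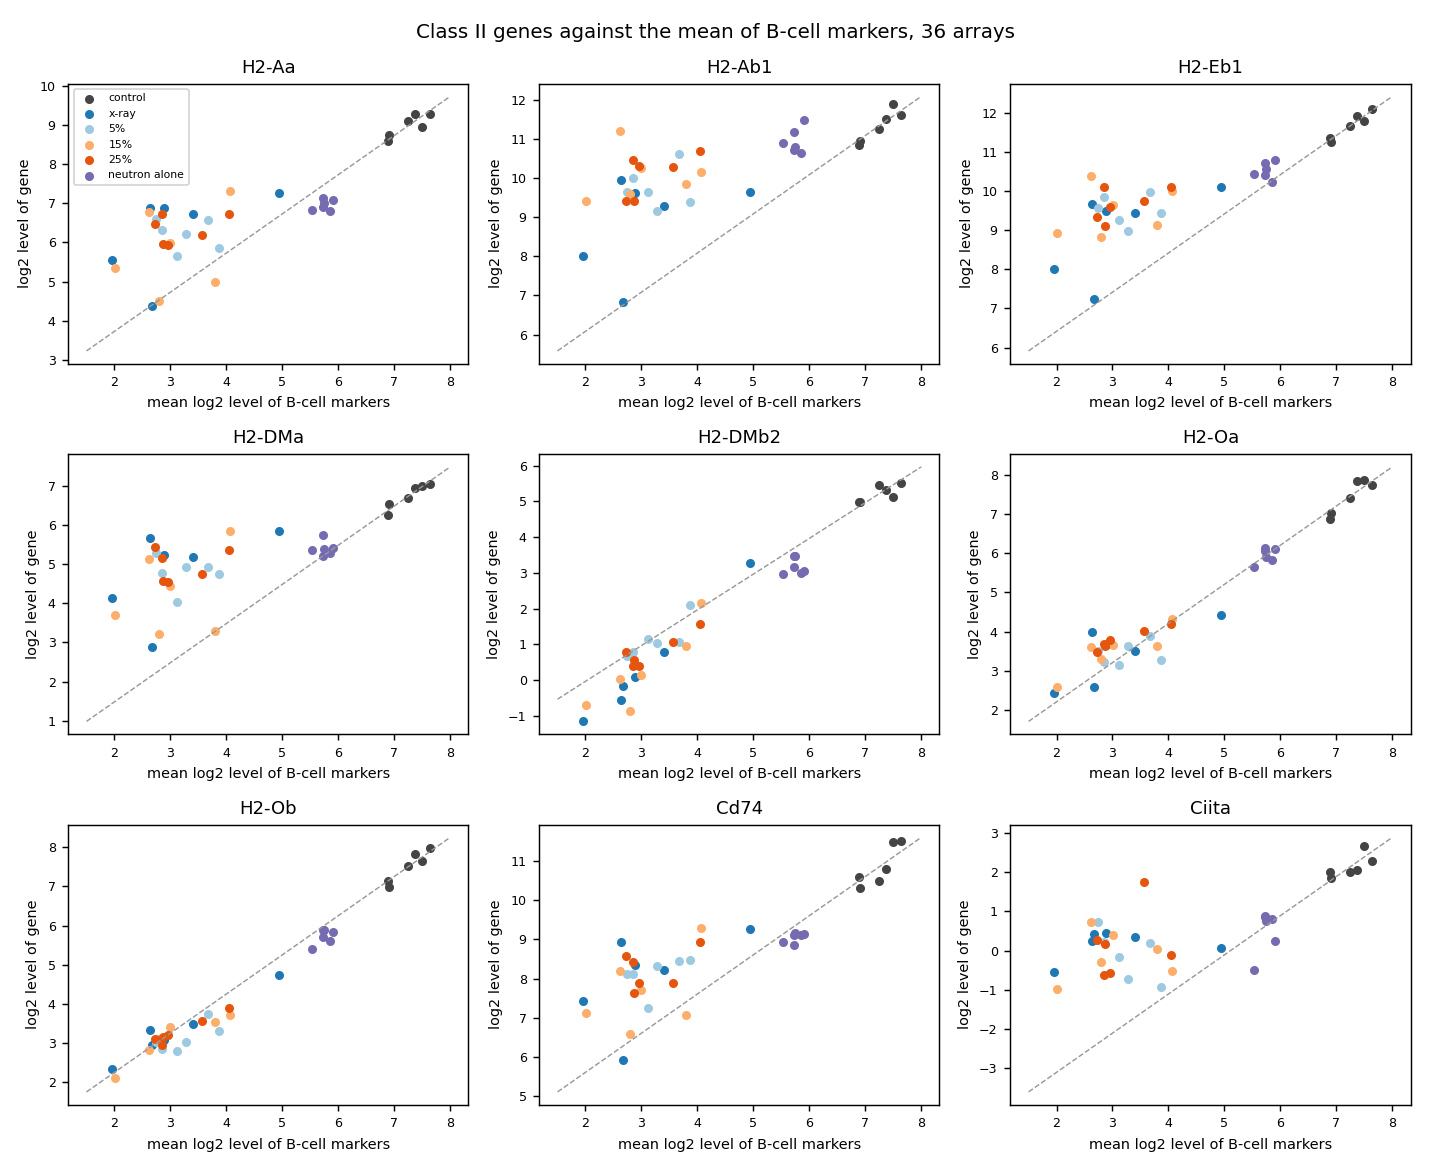
Log2 level of each class II gene (vertical axes) against the mean log2 level of 17 B-cell markers (horizontal axes) on 36 arrays, coloured by group; the dashed line passes through the control means with slope 1. H2-Oa and H2-Ob stay near the line in all groups, whereas most x-ray and mixed-field arrays of H2-DMa, H2-Ab1, and H2-Eb1 lie above it.

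Across the 36 arrays the members moved together. Pearson's r between pairs of members ranged from 0.56 to 0.99 over the 36 pairs, and from 0.02 to 0.97 (median 0.62) once group means were subtracted. Ciita, near background in exposed blood, hardly moved with the other members within groups, with r from 0.02 (Cd74) to 0.30 (H2-Oa). The arrays share their scaling and differ in depth, and this is a description with no test. The genes whose levels most resembled the mean of the standardized members over 36 arrays were the transcript ENSMUST00000010286, which the array describes as Tnfrsf13b, a BAFF and APRIL receptor of B cells (r 0.99), Grap, Gpr18, B3gnt5, and Cd83. Within groups they were the same transcript, H2-DMb1, Slc38a1, Lat2, and Napsa.

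Other genes of the pathway were examined in lists chosen for their roles. Of the 40 genes tested in 7 lists, 15, 13, 13, 14, and 11 were called lower and 4, 4, 7, 6, and 7 higher in the order of the exposures, beside 16.9, 14, 16.5, 13.9, and 20.5% of all genes called lower and 12.9, 9.04, 12.6, 10.9, and 16.1% called higher. The count called higher depended on scaling: for neutron alone it was 14 with the 75th percentile and 13 with the median of detected probes, and for the 15% field it was 4 with quantile normalization. Among the other class II chains, H2-Eb2, a relative of H2-Eb1, changed by -4.18, -3.98, -3.71, -4.02, and -1.40 in the same order, all called. H2-DMb1, the near copy of H2-DMb2, changed by -2.15, -1.74, -1.87, -1.65, and -1.03, all called. The H2-DMb1 and H2-DMb2 probes share no run longer than 5 bases.

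Of 11 tested genes of class II transcription, 5, 3, 3, 3, and 2 were called lower and 1 was called higher in each exposure. Of all genes, 16.9, 14, 16.5, 13.9, and 20.5% were called lower. The list was mixed, with median changes of -1.03, -0.68, -0.29, -0.45, and -0.02. Spib, an Ets factor of B cells and plasmacytoid dendritic cells, changed by -4.48 after x-rays and -0.72 after neutron alone, and Irf4, a lymphocyte factor, by -1.91 and -1.07. Rfxap, a subunit of the complex that binds the X box, changed by -1.71 after x-rays and was called in no other exposure. Kat2b, an acetyltransferase, was called higher in all 5 exposures (1.57 after x-rays, 0.89 after neutron alone).

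Of 7 co-stimulation genes of presenting cells, 5 were called lower in each of the first 4 exposures and 4 after neutron alone. Cd83, which protects class II molecules from degradation, changed by -2.89 after x-rays and -1.46 after neutron alone, Icosl by -3.18 and -1.42, and Cd40 by -3.56 and -0.69. Of 7 genes of class II turnover and trafficking, March8, a ubiquitin ligase that can target class II molecules, was called higher in every exposure (2.34 after x-rays, 1.64 after neutron alone), as was the tetraspanin Cd82 (1.52 and 1.23). Of 6 endosomal processing genes, Ctsb, a lysosomal protease, was called higher in every exposure (1.92 and 2.16). The share of all genes called higher was 12.9, 9.04, 12.6, 10.9, and 16.1%.

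Class I presentation is shared by all nucleated cells. Of 6 of its genes tested, 3 were called lower in each exposure, among them Tap1, a chain of the peptide transporter, by -1.34 after x-rays and -1.49 after neutron alone, and B2m, the class I light chain (0.21 after x-rays, not called), was called higher in the 15 and 25% fields and after neutron alone (1.38, 1.07, and 1.04). Among markers of the remaining blood cells, 8, 8, 8, 6, and 9 of 9 red-cell genes were called higher (Ahsp and Ank1 leading). Of 11 neutrophil genes, 4, 3, 4, 4, and 4 were called higher (Ngp and Ltf leading) and 0, 0, 1, 1, and 1 lower. The neutrophil list was mixed, with median changes of 0.25, -0.07, 0.97, 0.54, and 0.70. Of 15 T-cell genes, 6, 7, 7, 5, and 2 were called lower (Ccr7 and Bcl11b leading). Of all genes, 12.9, 9.04, 12.6, 10.9, and 16.1% were called higher and 16.9, 14, 16.5, 13.9, and 20.5% lower. Of 10 NK-cell genes, led by Tbx21 and Klre1, Tbx21 was called higher in the 25% field.

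**Figure D4:**
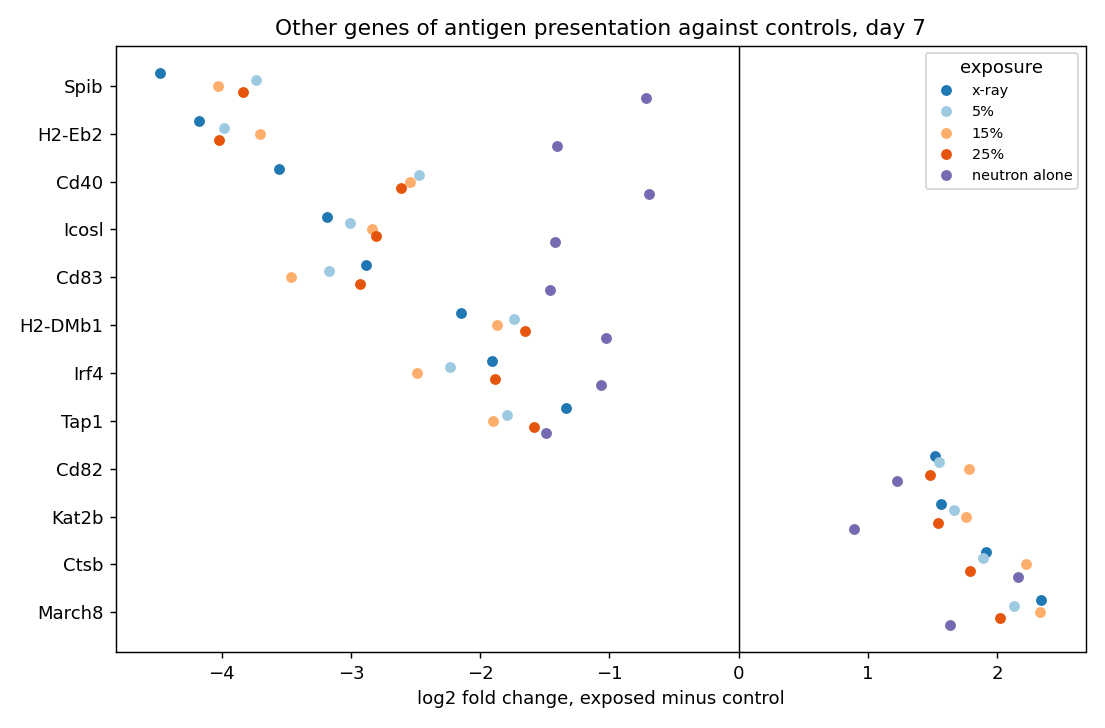
Log2 fold change against controls (horizontal axis) of the 12 named genes of antigen presentation outside the 9 members (vertical axis), 1 point per exposure; filled points were called. H2-Eb2 and Spib lie near -4 except after neutron alone, and March8, Ctsb, Cd82, and Kat2b lie above 0 in every exposure.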

How the data were processed

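Blood RNA of 36 mice was measured on 36 single-colour Agilent arrays, 6 per group, grouped by the sample titles. The authors deposited 1 scanner file per array, with linear intensities (Agilent Feature Extraction 12.0.2, per the submitters' processing notes), background-corrected within the array and not normalized between arrays. The authors also deposited a table of normalized, filtered log2 values, used here as an alternative. No deposited column was without a sample.

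With R 4.3.3 and limma 3.58.1, processed intensities were log2-transformed, replicate spots were averaged after dropping those marked non-uniform, and the array's own median was subtracted. Probes had to be significantly above background on more than 75% of arrays, and to differ 1.5-fold or more from their median on 20% of arrays (17962 probes), and the brightest probe represented a gene (15084 genes). Each pair of groups was fitted on its 12 arrays. The number of arrays limits the precision. Array signals near background limit dim genes. Fits were tested on simulated data.

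Members and gene lists were chosen with earlier results of these data known. Named genes are all members, the pathway genes called in 1 direction in at least 4 of 5 exposures (at most 12), the 5 nearest in likeness over the 36 arrays before and after subtracting group means, and the 2 leading genes of each marker list with Ms4a1 and Cd79a, less some that are not reported here; Rfxap and B2m were named after their values were seen. The group labelled 100% neutron is the 0.75 Gy neutron exposure. Alternatives were other scalings, normexp background correction (offset 50), other filters and probe rules, the deposited table, a model over 36 arrays, blocks for replicate number, slide, and scan session, the random variance t-test of the methods, and leaving out each array.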

Additional observations from a re-analysis of the deposited data

Results flagged for a closer look

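In 54 groups of 6 arrays (9 genes, 6 groups), 4 had 1 array farther from the others than Dixon's test allows at the 95% level, and chance flags about 1 in 20. H2-DMb2 in replicate 3 of the 5% field was at 2.11, above the next array at 1.15. Cd74 in replicate 6 of the 5% field was at 7.24, below the next at 8.11. Ciita was at -0.56 in x-ray replicate 2, below the next at 0.08, and at 1.74 in replicate 2 of the 25% field, above the next at 0.26.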

How the results depend on the processing

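Against the controls, every member kept its direction under all alternatives in which it was tested. For neutron alone the pathway genes called higher were 14 with 75th percentile scaling and 13 with the median of detected probes, against 7, and in the 15% field they were 4 with quantile normalization, against 7. These scalings moved the median of all genes after x-rays from -0.11 to 0.44 at the 75th percentile, and normexp moved it to -0.78. Under normexp, where Ciita was not tested, 0 members were called for neutron alone against x-rays and against the 25% field. The reversed differences were -0.14 (H2-DMa) and -0.091 (H2-Aa) in the first, where the median of all genes was -0.37. In the second they were -0.17 (Cd74), -0.34 (H2-DMa), -0.20 (H2-Aa), -0.23 (H2-Ab1), and -0.19 (H2-Eb1), where that median was -0.57. These members thus lay above the median of all genes. The cause was not tested. The slide as a block left 4, 2, and 0 members called after x-rays and in the 5 and 15% fields, and the scan session 4 and 2 in the latter 2. With adjusted p alone, 7 members differed between neutron alone and the 25% field by limma and 7 by the random variance t-test. Leaving out 1 array gave 8 to 9 members called after x-rays, 9 in the 5% field, 8 to 9 in the 15 and 25% fields, 8 after neutron alone, and 3 to 5 in both comparisons of neutron alone with other exposures. Same replicate numbers did not pair the arrays (mean r 0.04 over 90 pairs), and the replicate block left 8, 9, 8, 8, and 8 members called against the controls, and 4 and 3 for neutron alone against x-rays and the 25% field.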
